A study of Mus musculus with 12 samples.

Results

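The Hox genes examined here were 38 homeobox genes of the Hoxa, Hoxb, Hoxc and Hoxd clusters, taken as a list of gene symbols and found on the array through the accession of each probe. A probe was matched for 35 of the 38, by 45 of the 41174 probes on the array, which carried 17305 named genes. No probe was matched by accession for Hoxc4, Hoxc6 and Hoxc11, and these 3 genes were not analysed here. Kidneys of Bdkrb2 null embryos were compared with kidneys of wild-type (WT) embryos at embryonic day 14.5. Bdkrb2 encodes the bradykinin B2 receptor. Both genotypes came from matings of heterozygous parents on a C57BL/6 background, and the mothers of both ate a high-salt food with 5% sodium. Null and WT RNA shared each of 12 Agilent arrays, labelled with different dyes. Null RNA was in Cy5 and WT RNA in Cy3 on 6 arrays, called null/WT, and 6 further arrays, called WT/null, had the opposite labelling. There were 3 replicates of each orientation, called biological in the series design text, with 2 arrays each. The labels do not say whether a sample held 1 embryo or several, or whether the 2 orientations of a replicate number came from the same RNA extracts, so p-values measure only the spread between these samples.

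Hox genes encode transcription factors that carry positional identity along the body axis. In the mouse they lie in 4 clusters, Hoxa on chromosome 6, Hoxb on chromosome 11, Hoxc on chromosome 15 and Hoxd on chromosome 2, and the number in a gene's name gives its paralog group, from the anterior to the posterior end of the cluster. Genes with low numbers are expressed further forward and earlier in the embryo than genes with high numbers. In the mouse kidney the paralogs of group 11 are required for induction of the metanephros and act with Eya1 and Pax2 on Six2 and Gdnf, the group 10 paralogs act in the stroma, and Hoxb7 is a marker of the ureteric bud and its branches. Genes of group 13 belong to the hindmost structures of the embryo, such as the cloaca, the genital tubercle and the digits.

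Kidney markers were detected on the arrays, as were some markers of other tissues. All 10 nephron progenitor markers of the list were tested and 9 of them were well above background in every channel, as were 8 of 9 further ureteric bud markers. So were 5 of 11 skeletal muscle and cartilage markers, 3 of 6 liver markers and 1 of 10 gonad and adrenal markers. Of all probes on the array, 38.5% were, counted probe by probe, while a marker gene was counted by its best probe. The probe for Bdkrb2 itself stood above background in 1 of the WT channels and in 0 of the null channels (12 each), so it could not check the labels. The Cy3 channel was well above background at 41.2% and 45.0% of probes on the 2 arrays of WT/null replicate 3, where it held the null RNA, against 48.5% to 59.0% on the other arrays. Of the 45 Hox probes, 19 and 21 were well above background in the null channel of those 2 arrays, against 30 to 36 in the null channels of the other arrays, while the WT channels of all 12 arrays had 26 to 36. Each slide of 4 arrays held both orientations of 1 replicate number.

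Genes of groups 7, 9 and 10 were detected throughout by the best probe of each, and genes of group 13 were not. A spot counted as well above background by the scanner software's own flag. Of the 35 genes, 15 were well above background in all 12 null and all 12 WT channels, a state shared by 38.5% of all probes on the array. The genes were counted by the best probe of each and the share is of single probes, so the 2 are unlike measures. These 15 were Hoxa7, Hoxa9, Hoxa10, Hoxa11, Hoxb2, Hoxb4, Hoxb5, Hoxb6, Hoxb7, Hoxb9, Hoxc9, Hoxc10, Hoxd4, Hoxd9 and Hoxd10. By genotype, 15 genes were well above background in all 12 null channels and 23 in all 12 WT channels. With both arrays of WT/null replicate 3 left out, 23 genes were well above background in every remaining channel, so those 2 arrays set the difference between 15 and 23. On them 41.2% and 45.0% of all probes were well above background in the null channel, against 51.1% and 53.1% in the WT channel. Shares of all probes in every channel of 1 genotype, or without those 2 arrays, were not counted.

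All of paralog group 9 was detected in every channel, which held for Hoxa9, Hoxb9, Hoxc9 and Hoxd9, and so were the 3 genes of group 10, Hoxa10, Hoxc10 and Hoxd10. The dimmer Hoxc10 probe was well above background in 11 null and 9 WT channels. In group 11, Hoxa11 was detected in all 12 null and all 12 WT channels. Hoxd11, its functional partner in the mouse metanephros, was near the detection limit, with 5 of 12 null and 6 of 12 WT channels. Hoxd12 was well above background in 10 null and 12 WT channels.

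No gene of group 13 reached the minimum for testing. The probes of Hoxa13, Hoxb13 and Hoxc13 were well above background in 0 of 24 channels, and 1 of the 2 Hoxd13 probes was so in 1 null channel, on the first array of WT/null replicate 3, and in 0 WT channels. Hoxb1, Hoxc8 and Hoxc12 were also well above background in no channel. In all, 6 genes were in no channel by any of their probes, against 34.4% of all single probes on the array. A spot that is not well above background gives a limit of the array and not an absence of transcript.

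At the anterior and middle positions detection varied between clusters. Group 7 was an exception, with Hoxa7 and Hoxb7 both detected in every channel. Hoxd1 was well above background in 10 null and 12 WT channels. Hoxb8 had 4 and 2 null channels and 5 and 2 WT channels by its 2 probes, and fell short of the minimum. Hoxd8 had 10 null and 12 WT channels, so the group 8 genes ranged from no channel for Hoxc8 to nearly every channel for Hoxd8. In group 5, Hoxb5 was detected in every channel, Hoxa5 had 8 null and 5 WT channels, and Hoxc5 had 9 null and 11 WT channels.

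**Figure D1:**
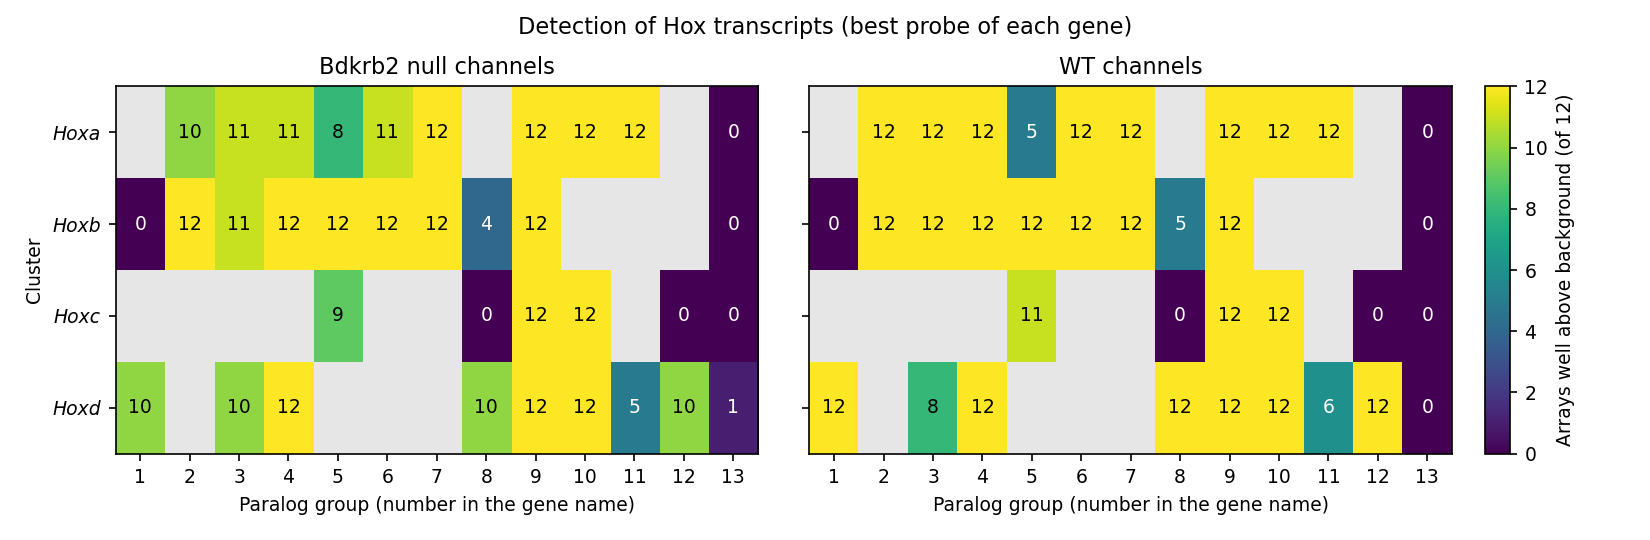
Number of the 12 null channels (left) and of the 12 WT channels (right) in which the best probe of each Hox gene was well above background, by cluster (rows) and paralog group (columns). Grey squares hold no gene analysed here. Groups 7, 9 and 10 read 12 throughout in both panels and group 13 reads 0, apart from 1 null channel for Hoxd13.

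Normalised signal was read in each genotype's own channel on the log2 scale, averaged over the 2 arrays of a replicate, and each value below is a level. The brightness of a spot also depends on its probe, so signals are set side by side only within a probe. Hoxb7 had 13.05 ± 0.12 in null kidneys and 13.05 ± 0.10 in WT kidneys (SD, 6 replicates each). Hoxb6 had 13.45 ± 0.08 in null kidneys and 13.56 ± 0.25 in WT kidneys. The WT values of Hoxb6 spread over 13.25 to 13.85 and the null values over 13.31 to 13.57, so they overlapped. Hoxd10 had 11.69 ± 0.10 in null kidneys and 11.69 ± 0.05 in WT kidneys, and Hoxd9 had 9.59 ± 0.26 in null kidneys and 9.66 ± 0.35 in WT kidneys. The ranges of the 2 genotypes overlapped for 27 of the 27 tested genes, by the brightest probe of each. The same count was not made over all tested probes. Each range mixes both dyes and sets aside that null and WT shared an array, so an overlap says little about the ratio within arrays. Hoxa11 had 7.83 ± 0.14 in null kidneys and 7.84 ± 0.24 in WT kidneys, and Hoxd11 had 6.31 ± 0.15 in null kidneys and 6.34 ± 0.14 in WT kidneys.

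**Figure D2:**
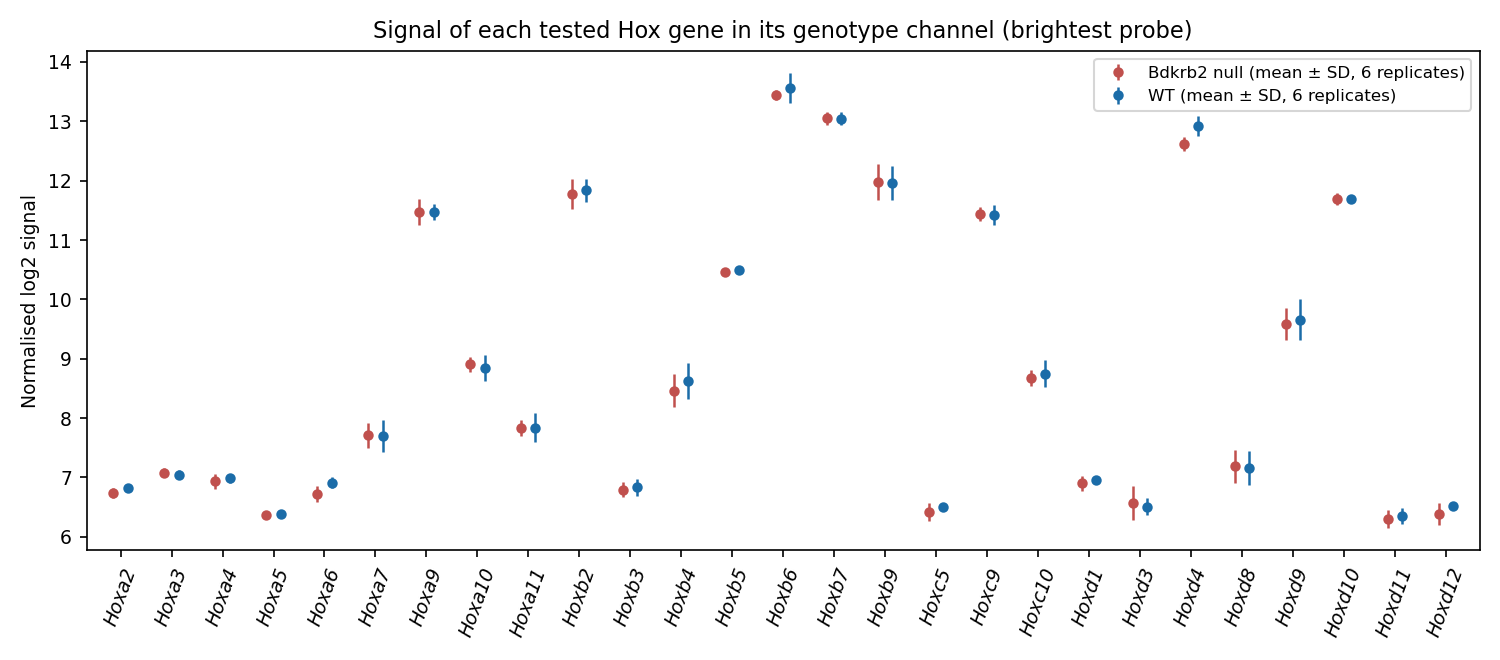
Normalised log2 signal of the brightest probe of each tested Hox gene in the null channel (red, left) and in the WT channel (blue, right), as mean ± SD over 6 replicates. The 2 points of a gene lie close together, and heights of different genes cannot be set against each other.

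The comparison of genotypes asked whether loss of the receptor under gestational high salt went with a change in Hox transcripts. No Hox gene passed the test. Ratios are log2 of null over WT, so that a negative value means less signal in null kidneys, and testing required a probe to be well above background for at least 1 genotype on 6 or more of the 12 arrays. That left 27 of the 35 genes, by 34 probes, in a limma fit with terms for genotype and dye over 22978 probes, with Benjamini-Hochberg adjustment over all of them. Of the 34 Hox probes, 0 had an adjusted p under 0.05, where 0.0392% of all tested probes did. With the replicate number as a block, 0 Hox probes passed and 0.0174% of all tested probes did (4 probes, against 9 without the block). The median standard error of a ratio over all tested probes was 0.0506.

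At an unadjusted p under 0.05, 3 Hox probes remained, those of Hoxd4, Hoxb4 and Hoxa6, where 7.01% of all tested probes did. All 3 had less signal in null kidneys. Of all tested probes 1610 had a p under 0.05, and 596 of these had less signal in null kidneys, which is 2.59% of all tested probes. With the replicate block the count of Hox probes at this p was also 3, against 3.30% of all probes. One Hox probe of 34, that of Hoxd4, had the same sign in 6 of 6 replicates, as 2.92% of all tested probes had, and it was lower in null kidneys in all of them, as 1.42% of all probes were.

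Hoxd4 had the clearest difference among the Hox genes. It encodes a group 4 Hox protein whose mouse gene responds to retinoic acid in the hindbrain. Its normalised signal had a lowest value of 12.47, a median of 12.60 and a highest value of 12.82 in null kidneys, against 12.61, 12.94 and 13.12 in WT kidneys. The 2 ranges overlapped, although the ratio within each replicate was below 0. Its log2 ratio was -0.45, -0.38 and -0.30 in null/WT replicates 1, 2 and 3, and -0.04, -0.28 and -0.35 in WT/null replicates 1, 2 and 3. WT/null replicate 1 lay close to 0, and the other 5 replicates lay between -0.45 and -0.28. The fitted log2 ratio was -0.30 ± 0.05 (SE), a signal 1.23-fold lower in null kidneys, with a 95% interval from -0.417 to -0.181. Its unadjusted p was 0.00037 and its adjusted p 0.205 (limma). With the replicate block they were 0.000895 and 0.904 (limma). By replicate number, and so within each slide, the ratio was -0.24, -0.33 and -0.32 for numbers 1, 2 and 3. The dye term of the Hoxd4 probe did not pass (adjusted p = 0.349, limma). When each array was centred on its median in place of loess, the ratio was -0.09 ± 0.14 (SE; adjusted p = 0.675, limma). The median of all tested probes was then 0.138 in place of -0.00984, so that Hoxd4 lay 0.231 below it in place of 0.289. In whole kidneys fewer cells of a type and less RNA per cell cannot be told apart.

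Hoxb4 is the group 4 gene of the Hoxb cluster. Its ratio was -0.61, -0.39 and -0.79 in null/WT replicates 1, 2 and 3, and 0.31, 0.23 and 0.29 in WT/null replicates 1, 2 and 3. The sign of the Hoxb4 ratio followed the dye in all 6 replicates, with less signal for whichever genotype carried Cy5. Its fitted ratio was -0.16 ± 0.05 (SE; adjusted p = 0.647, limma), and its dye term was -0.44 (adjusted p = 0.0050, limma). The third tested gene of group 4, Hoxa4, had a ratio of -0.05 ± 0.05, so the 3 tested genes of group 4 were all below 0, with a median of -0.161.

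Hoxa6 had a ratio of -0.27, -0.19 and -0.28 in null/WT replicates 1, 2 and 3, and 0.12, -0.10 and -0.39 in WT/null replicates 1, 2 and 3. It was below 0 in 5 of 6 replicates, and its fitted ratio was -0.19 ± 0.06 (SE; adjusted p = 0.648, limma). The signal of its probe was low, at 6.72 ± 0.14 in null kidneys and 6.91 ± 0.09 in WT kidneys. Its ratio was -0.36 with plain subtraction of the local background, -0.32 by the scanner software's own ratios, which also use another normalization, and -0.08 where arrays were median-centred instead.

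The sequences in front of these 3 genes are shown because theirs were the Hox transcripts with the smallest p, each lower in null kidneys before adjustment. The 250 bases before each annotated start were taken from a table of RefSeq promoter sequences on build GRCm38.p6, in which 22 of the 38 Hox genes were matched. They are Hoxd4 at chr2:74721728-74721977 on the plus strand, Hoxb4 at chr11:96318017-96318266 on the plus strand, and Hoxa6 at chr6:52208673-52208922 on the minus strand. Capitals mark matches on either strand to AGGTCA, the half-site bound by retinoic acid receptors and related nuclear receptors, to CCAAT, and to TATAA. No match of 1 motif overlapped a match of another.
Hoxd4: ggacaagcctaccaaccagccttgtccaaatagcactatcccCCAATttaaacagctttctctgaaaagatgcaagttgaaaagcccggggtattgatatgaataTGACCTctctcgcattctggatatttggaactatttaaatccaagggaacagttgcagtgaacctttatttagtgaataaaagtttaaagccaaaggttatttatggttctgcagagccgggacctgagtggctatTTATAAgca
Hoxb4: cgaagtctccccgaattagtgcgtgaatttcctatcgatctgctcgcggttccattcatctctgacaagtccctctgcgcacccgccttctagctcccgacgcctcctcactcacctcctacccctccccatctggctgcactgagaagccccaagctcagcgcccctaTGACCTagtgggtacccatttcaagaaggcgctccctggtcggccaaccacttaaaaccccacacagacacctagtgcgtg
Hoxa6: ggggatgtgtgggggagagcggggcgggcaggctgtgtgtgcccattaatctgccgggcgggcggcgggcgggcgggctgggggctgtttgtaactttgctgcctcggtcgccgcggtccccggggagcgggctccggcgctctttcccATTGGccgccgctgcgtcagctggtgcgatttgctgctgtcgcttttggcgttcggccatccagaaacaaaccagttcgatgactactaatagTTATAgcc

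None of the 3 motifs searched was matched in all 3 windows. AGGTCA was matched in front of Hoxd4 and Hoxb4 and not in front of Hoxa6, and occurred in 13.8% of 27025 mouse promoter windows of this length and in 6 of the 22 Hox windows. CCAAT was matched in front of Hoxd4 and Hoxa6, in 34.5% of all windows and in 13 of 22 Hox windows. TATAA was matched in front of Hoxd4 and Hoxa6, in 23.5% of all windows and in 4 of 22 Hox windows. The Hoxd4 window was the poorest in G and C of the 3, at 40.4% with 3 CpG, against 58.0% with 14 CpG for Hoxb4 and 65.2% with 24 CpG for Hoxa6, where the median window had 52.0% and 6 CpG. A match is a run of letters, and binding there was not measured.

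Of the 27 tested genes, 10 had a ratio above 0 and 17 below 0 by the brightest probe, where 55.9% of all tested probes were below 0. Their median was -0.042, against -0.00984 for all tested probes, and with median centring of the arrays it was 0.0947, against 0.138, with 6 of the 27 below 0. Of the named genes, Hoxa2, Hoxa4, Hoxa11, Hoxb6, Hoxc10 and Hoxd9 had ratios below 0 by loess and above 0 with median centring. Relative to the median of all tested probes 16 of 27 were lower in null kidneys, and with median centring 17 of 27 were. The median was -0.008 in the Hoxa cluster (9 genes), -0.043 in Hoxb (7 genes), -0.070 in Hoxc (3 genes) and -0.044 in Hoxd (8 genes).

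The genes best known from kidney development had ratios near 0 in the main fit. Hoxb7, the ureteric bud marker, had 0.20, 0.11 and 0.19 in null/WT replicates 1, 2 and 3, and -0.18, -0.16 and -0.14 in WT/null replicates 1, 2 and 3. The sign again followed the dye, here with more signal for the genotype in Cy5. Its fitted ratio was 0.00 ± 0.04 (SE), with a 95% interval from -0.083 to 0.088. Intervals are from the main fit, which takes same-numbered samples as independent. With the replicate block the standard error was 0.050 for Hoxb7 and 0.055 for Hoxa11. Hoxa11, which acts in nephron progenitors, had -0.27, -0.34 and -0.11 in null/WT replicates 1, 2 and 3, and 0.27, 0.16 and 0.23 in WT/null replicates 1, 2 and 3, and a fitted ratio of -0.01 ± 0.04 with a 95% interval from -0.110 to 0.095. Hoxd11 had -0.07, 0.02 and -0.05 in null/WT replicates 1, 2 and 3, and -0.04, 0.09 and -0.18 in WT/null replicates 1, 2 and 3. Its interval ran from -0.145 to 0.066, on a probe that was well above background in only 5 null and 6 WT channels. The Hoxd11 ratio depended on the processing. It was -0.14 with plain background subtraction and -0.24 by the scanner software's own ratios (adjusted p = 0.785 and 0.520, limma).

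In group 10, whose mouse genes act in the kidney stroma, the 3 genes differed little from 0. Hoxa10 had a ratio of 0.06 ± 0.06, Hoxc10 of -0.07 ± 0.04 and Hoxd10 of 0.00 ± 0.04. Hoxd10, the gene of this group with the narrowest spread, had 0.05, 0.13 and -0.01 in null/WT replicates 1, 2 and 3, and -0.03, 0.02 and -0.13 in WT/null replicates 1, 2 and 3, with a 95% interval from -0.093 to 0.098. Hoxc10 had 0.07, 0.05 and -0.04 in null/WT replicates 1, 2 and 3, and -0.19, -0.10 and -0.21 in WT/null replicates 1, 2 and 3, so it was below 0 in 4 of 6. Stroma markers stood above 0 in the same samples: 7 of 10 tested, with a median of 0.14, of which Dcn (0.35 ± 0.06), Lum (0.49 ± 0.08) and Penk (0.20 ± 0.06) had the smallest p and 0 passed adjustment. Their mean signal ranged over 11.8 to 11.9 in null kidneys and 11.6 to 11.8 in WT kidneys, and their part in the Hox values was not tested.

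At the posterior end, Hoxd12 had -0.16, -0.26 and 0.01 in null/WT replicates 1, 2 and 3, and 0.04, 0.02 and -0.44 in WT/null replicates 1, 2 and 3. Its fitted ratio was -0.13 ± 0.07 (adjusted p = 0.711, limma), with 3 of its 6 replicates above 0. Hoxa2, at the anterior end, had -0.18, -0.15 and -0.06 in null/WT replicates 1, 2 and 3, and 0.04, 0.04 and -0.17 in WT/null replicates 1, 2 and 3. Its fitted ratio was -0.08 ± 0.05. The other tested genes, Hoxa5, Hoxa7, Hoxa9, Hoxb2, Hoxb3, Hoxb5, Hoxc5, Hoxc9, Hoxd1 and Hoxd8, had fitted ratios between -0.09 and 0.03.

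**Figure D3:**
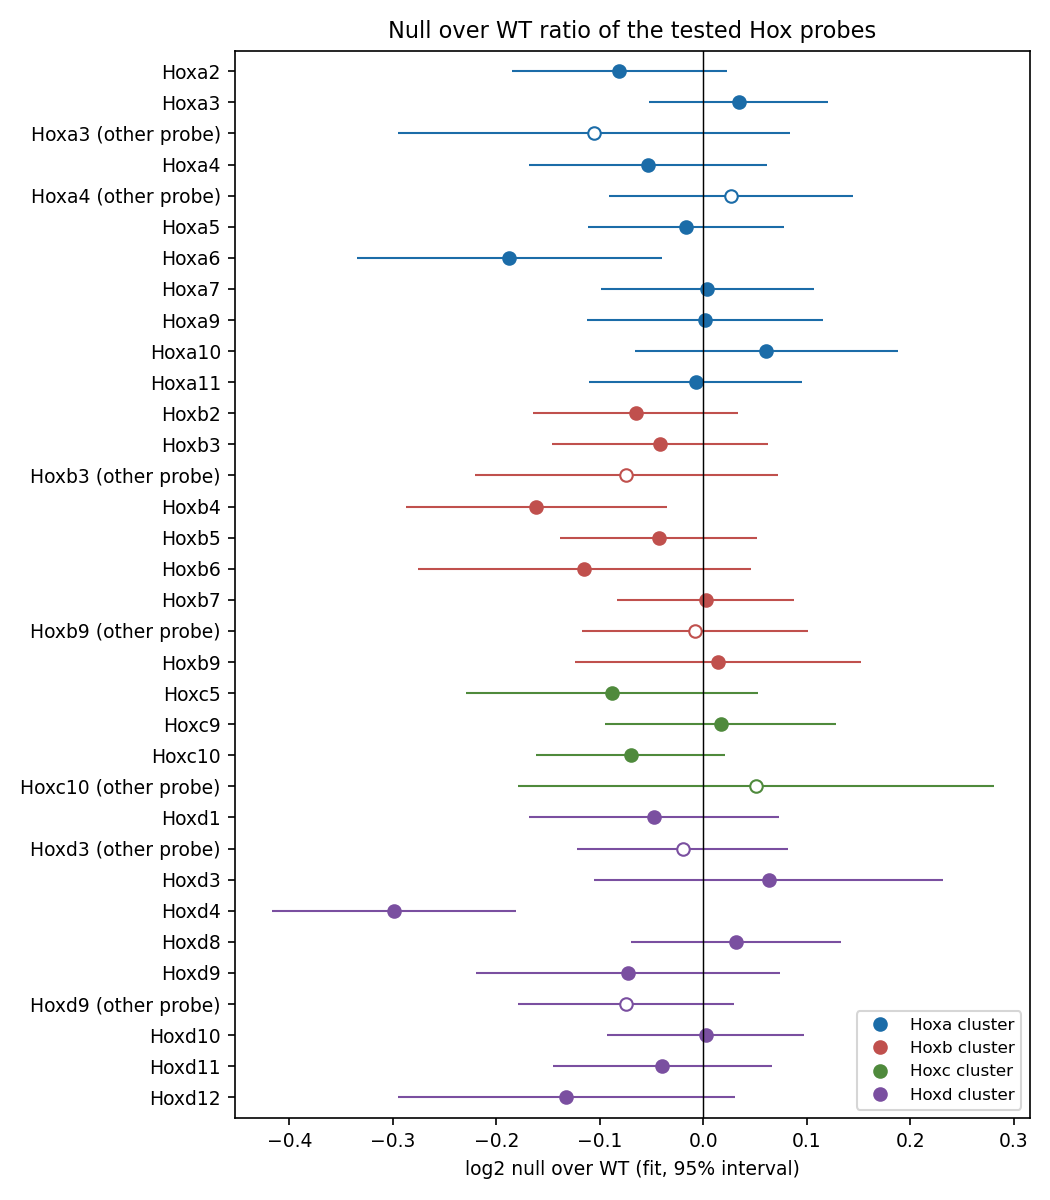
Fitted log2 null over WT of the 34 tested Hox probes with 95% intervals, coloured by cluster and in cluster order from group 1 down. The intervals are from the main fit, without the replicate block. Filled points are the brightest probe of a gene and open points its other probes. The interval of Hoxd4, from -0.417 to -0.181, lies farthest from 0, and those of Hoxa6 and Hoxb4 are the only others that leave out 0.

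**Figure D4:**
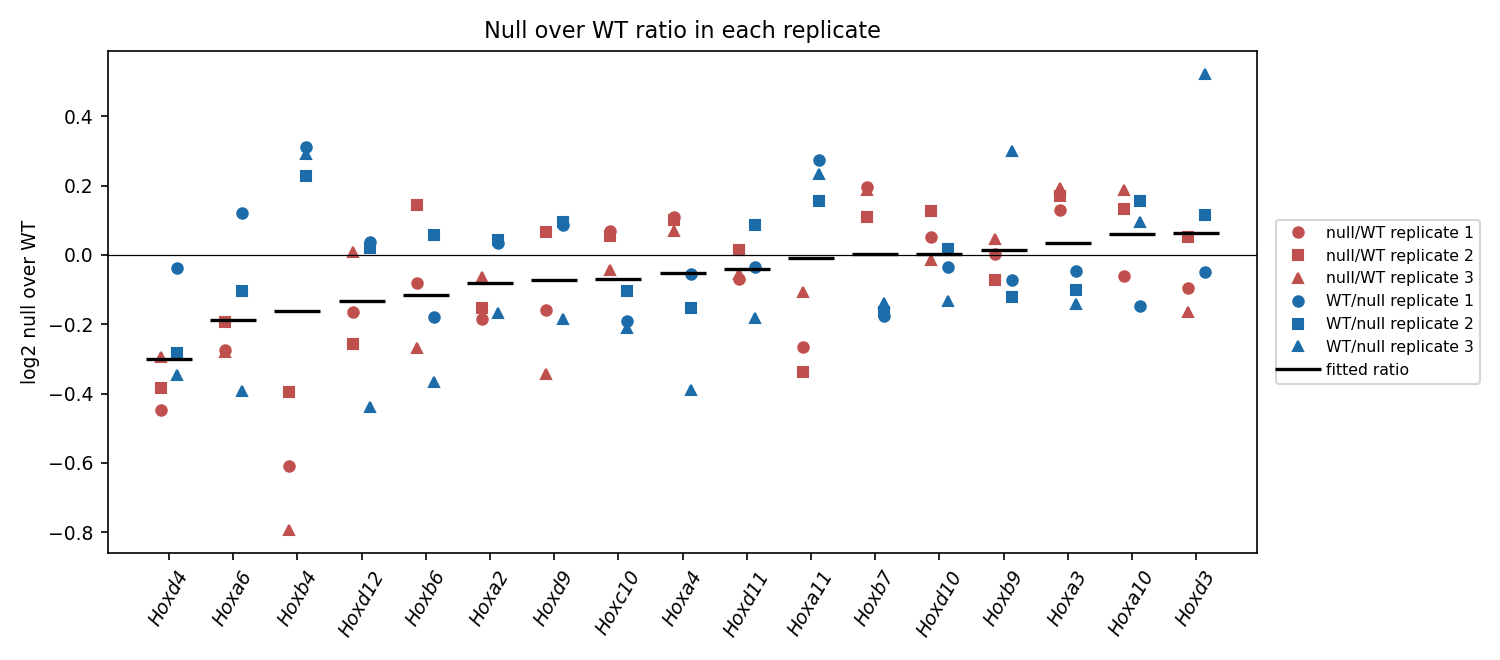
Log2 null over WT of the named Hox genes in each of 6 replicates, red for null/WT and blue for WT/null, with a different marker for each replicate number and a bar at the fitted ratio. Hoxd4 is below 0 in all 6 replicates, while Hoxb4, Hoxa11 and Hoxb7 split by colour.

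For 5 genes the tested probes had opposite signs. Hoxa3 had 0.03 ± 0.04 by its brighter probe and -0.11 ± 0.08 by the other, Hoxa4 -0.05 ± 0.05 and 0.03 ± 0.05, and Hoxb9 0.01 ± 0.06 and -0.01 ± 0.05. Hoxc10 had -0.07 ± 0.04 by the brighter probe and 0.05 ± 0.10 by the other, and Hoxd3 had 0.06 ± 0.07 and -0.02 ± 0.04. The 95% intervals of all 10 ratios included 0, and the difference between the probes of a gene was not tested. The other genes with 2 tested probes, Hoxb3 and Hoxd9, were below 0 by both. In WT/null replicate 3 the dimmer Hoxa3 probe read -0.68 and the dimmer Hoxc10 probe 0.80, the 2 farthest values of any tested Hox probe in that replicate. Hoxd3 read 0.52 there by its brighter probe, against -0.17 to 0.11 in the other 5 replicates. With the first array of that replicate left out, Hoxd3 read 0.30 in it and the fitted ratio was 0.02 ± 0.05.

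The dye term, which measures how a probe answers to Cy5 over Cy3 whichever genotype carries it, passed for 5 of the 27 brightest probes and 1 other Hox probe, where 13.5% of all tested probes did (limma). It was -0.44 for Hoxb4, -0.35 for the dimmer Hoxb9 probe, -0.33 for Hoxb2, -0.25 for Hoxa7, -0.23 for Hoxa11 and 0.16 for Hoxb7. Of these 6 probes 5 gave more signal in Cy3 and 1 gave more in Cy5. Each of them had replicates of 1 sign in one orientation and of the opposite sign in the other, and their fitted null over WT ratios lay between -0.16 and 0.00, because the fit takes the mean of the orientations.

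**Figure D5:**
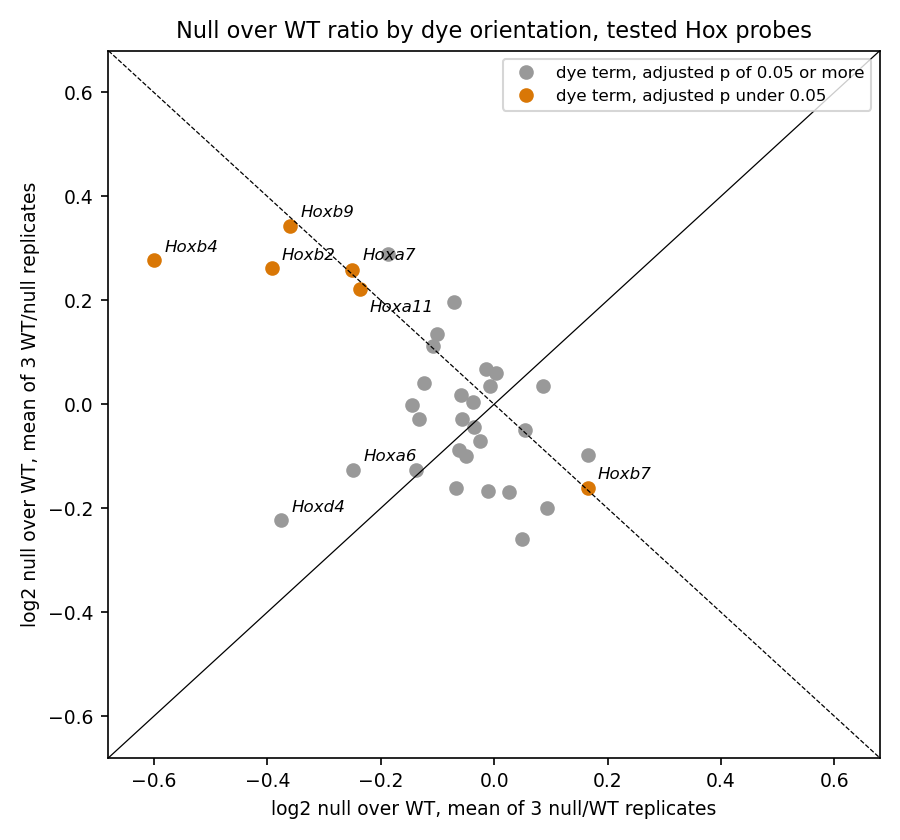
Log2 null over WT of each tested Hox probe, mean of the 3 null/WT replicates (horizontal) against mean of the 3 WT/null replicates (vertical). Probes on the dashed line change sign with the dye and probes on the solid line have the same ratio in both orientations. The 6 probes whose dye term passed are orange, with the label Hoxb9 on that gene's dimmer probe, and Hoxd4 lies below 0 in both orientations.

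The ratio could also differ between replicate numbers 1, 2 and 3, each a slide of its own with both orientations. In the test of that difference 0 Hox probes passed adjustment, where 1.48% of all tested probes did (moderated F test, limma), and 3 had an unadjusted p under 0.05, where 18.9% of all tested probes did. These were Hoxb6 (adjusted p = 0.105), Hoxd9 (adjusted p = 0.192) and Hoxa10 (adjusted p = 0.232). Hoxb6 had ratios of -0.13, 0.10 and -0.32 for numbers 1, 2 and 3. Within Hoxb6 the 2 orientations of a number had the same sign: -0.08 and -0.18 for number 1, 0.15 and 0.06 for number 2, and -0.27 and -0.37 for number 3, with null/WT before WT/null. Hoxd9 had -0.04, 0.08 and -0.26 for numbers 1, 2 and 3 by its brighter probe, and -0.07, 0.01 and -0.16 by the other, so both probes were lowest for number 3. Hoxa10 had -0.10, 0.14 and 0.14. The median of the 27 genes was -0.048, -0.048 and -0.076 for numbers 1, 2 and 3, against 0.0066, -0.0053 and -0.026 for all tested probes.

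Other differences between the samples moved with the replicate number. Markers of skeletal muscle and cartilage had medians of 0.14, 0.41 and 0.92 for numbers 1, 2 and 3 (9 of 11 tested, 8 above 0), with a mean signal of 7.5 to 9.0 in null kidneys and 7.4 to 7.7 in WT kidneys, and markers of the tubules had medians of -0.01, 0.14 and 1.1 (6 of 7 tested, 6 above 0), with a mean signal of 7.8 to 9.7 in null kidneys and 7.9 to 9.5 in WT kidneys. Xist was detected in 4 of 4 null channels on every slide, and in 4 of 4 WT channels on slide 1 against 0 of 4 on slides 2 and 3. On those 2 slides Ddx3y, Kdm5d and Eif2s3y, which are Y-linked, were detected in 0 of 4 null channels and 4 of 4 WT channels. The sex-linked genes therefore differed between null and WT RNA on slides 2 and 3 and not on slide 1. On slide 1 both samples had Xist and none of the 3 Y-linked genes. On slides 2 and 3 sex and genotype cannot be told apart. The part of tissue markers or of sex in the Hox values was not tested.

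Partners and regulators of Hox proteins likewise held no gene past the threshold, with 0 called in each of the 5 lists of such genes. Of the 9 TALE homeobox genes tested, whose Pbx, Meis and Pknox proteins bind DNA together with Hox proteins, 3 were above 0 and 6 below 0, with a median of -0.03. Meis3 (-0.16 ± 0.06), Pbx2 (-0.08 ± 0.06) and Meis2 (0.06 ± 0.04) had the smallest p. Of 19 partners and targets of Hox proteins in nephron progenitors, such as Eya1, Pax2, Six2 and Gdnf, 9 were above 0 and 10 below 0, with a median of 0.00. Cited1 (-0.10 ± 0.04) and Eya2 (-0.19 ± 0.09) lay below 0, and Foxc2 lay at 0.07 ± 0.04. The 10 nephron progenitor markers had a median of -0.08, with 2 above 0 and 8 below 0, and a mean signal of 10.52 to 10.79 in null kidneys and 10.59 to 10.92 in WT kidneys.

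Among 21 tested upstream and chromatin regulators of the clusters, which include the Polycomb proteins that keep Hox genes silent, 9 were above 0 and 12 below 0. The Cdx genes, known as activators of Hox genes in the posterior embryo, were in no channel (Cdx1, Cdx2 and Cdx4), and neither were Cbx7 and Cbx8. Kdm6a, an X-linked demethylase that removes the Polycomb mark, had the smallest p, at 0.36 ± 0.08 (adjusted p = 0.414, limma). Its ratio was 0.09, 0.42 and 0.58 for numbers 1, 2 and 3, higher on the 2 slides where Xist marked only the null RNA. Zfp503 (0.16 ± 0.04) and Cbx2 (-0.07 ± 0.04) followed.

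Of 17 tested genes of the retinoic acid pathway, which sets the anterior limits of Hox expression in the embryo, 6 were above 0 and 11 below 0, with a median of -0.03. Aldh1a1, an enzyme that makes retinoic acid, had -0.26 ± 0.09 (adjusted p = 0.646, limma) and ratios of 0.05, -0.37 and -0.47 for numbers 1, 2 and 3. Cyp26b1, which breaks retinoic acid down, had 0.14 ± 0.06, and the receptor gene Rxrb -0.11 ± 0.06. Genes next to the clusters were evenly divided, with 11 of 22 above 0 and 11 below 0 and a median of -0.01. Hibadh near Hoxa (0.08 ± 0.04), Skap1 near Hoxb (-0.08 ± 0.04) and Atf2 near Hoxd (0.10 ± 0.05) had the smallest p of these, and all 3 had adjusted p-values of at least 0.710 (limma).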

How the data were processed

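Median spot and background intensity values were deposited for each dye, without normalization, per the file headers. Per the file headers, Agilent Feature Extraction (version 10.5.1.1) also wrote processed intensity values and log10 ratios, Cy5 over Cy3, whereas version 6.1 is the one in the submitters' processing notes. It also wrote 0 or 1 flags, including the one for well above background. The deposited value table of the series is in log10 ratios, all turned to null over WT: its columns correlated at 0.998 to 0.999 with the scanner ratios turned the same way, with slopes of 1.00. Its column medians lay between -0.0218 and 0.00645, so they were not centred at 0, and how its blanks were chosen stays unknown. It served as an alternative only.

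From the median intensities, background was corrected with normexp (offset 50) and log2 ratios were normalised by loess within each array, with limma 3.58.1 in R 4.3.3. Control spots and 101 to 262 outlier spots per array were left out, spots of a probe were averaged, and the 2 arrays of a replicate were averaged, giving 6 values per probe. Levels per channel were taken after loess and Aquantile. Null over WT was fitted with lmFit and eBayes with a dye term over 22978 probes, after a filter on dim probes, and the threshold was an adjusted p under 0.05. The number of arrays limits the precision. Genes were named by unversioned accession against a RefSeq table (GRCm38.p6), which named 25097 of 41174 probes. The array header names mm9, so probes have no position here. A gene was represented by its brightest tested probe.

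Samples sharing a replicate number share a slide, and their deviations correlated at 0.587, 0.517 and 0.413 for numbers 1, 2 and 3. The numbers were therefore taken as pairing and a blocked fit was run beside the main one. Standard errors, intervals and p-values are from the main fit unless another setting is named. The main fit takes same-numbered samples as independent. With the block the standard error was 0.050 against 0.037 for Hoxb7, and 0.055 against 0.071 for Hoxd12. Replicate values are given for the Hox genes of groups 10 and 11, for Hoxb7, for the 6 with the smallest p, for the 4 with the smallest p between replicate numbers, and for genes whose probes differ in sign. From each list of partners up to 3 genes with the smallest p are named. The Hox genes and all lists were chosen with earlier results of these data known. The scripts were tested on simulated data. Alternatives covered background, normalization, the source of ratios, the filter, the dye term, arrays as a random block, probes per gene and samples left out.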

Additional observations from a re-analysis of the deposited data

Results flagged for a closer look

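Dixon's test at its 95% limit for 6 values was applied to the replicate ratios of the 34 tested Hox probes, and 3 values stood apart, all in WT/null replicate 3. Chance puts about 1 in 20 probes past this limit, or 1.7 of the 34. The dimmer Hoxa3 probe had a log2 null over WT of -0.675 in that replicate, where the nearest of the other 5 was -0.054. The Hoxc5 probe had -0.442 there, where the nearest other value was -0.081. The dimmer Hoxc10 probe had 0.802 there, where the nearest other value was 0.035. The 3 values do not share a sign. WT/null replicate 3 is the one whose Cy3 channel, which held the null RNA, had the fewest probes well above background, and its 2 arrays correlated at 0.711, against 0.824 to 0.923 between the 2 arrays of the other replicates. With its first array left out, the replicate read -0.41 for the Hoxa3 probe, -0.36 for Hoxc5 and 0.31 for the Hoxc10 probe.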

How the results depend on the processing

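Of 444 values of named results under other settings, 414 were classed as the same, 29 as moved and 1 newly passed the threshold. Counts were classed as the same within a set fold of the main count. Medians and most ratios were so if they moved by less than the spread between replicates. Ratios of Hoxd4, Hoxb4 and Hoxa6 were so if their sign and call held, however far they moved. The sign turned at least once for 11 of the 17 named Hox genes, none of which had passed the test, in 35 values in all, most often for Hoxd10 (8), Hoxa11 (7) and Hoxb7 (6). The count of all probes past the threshold, 9, became 4 with the replicate block (pairing by number), 148 with the 12 arrays as replicates within a random block, 3 with both orientations of number 2 left out, 62 with both orientations of number 3 left out and 15 with the first array of WT/null replicate 3 left out, and it ranged from 5 to 12 with 1 replicate left out. The replicate block left 0 Hox genes called and changed no other call of a Hox gene. With 12 arrays and a random block 1 Hox gene was called, Hoxd4 (-0.30, adjusted p = 0.0085, limma). That fit takes 2 arrays of 1 replicate as partly independent, with an estimated correlation of 0.707 between them. Over 21 alternatives the ratio of Hoxd4 ranged from -0.346 to -0.094 and its adjusted p from 0.0085 to 0.904. Median centring turned the Hox median to 0.0947, left 6 Hox genes below 0, and gave 9 Hox genes a difference between replicate numbers and 14 a dye term past the threshold, in a setting where 49.8% and 71.6% of all tested probes passed those tests. With the filter at both channels of every array, 8 Hox genes were below 0, of fewer genes tested. With 1 replicate left out, the Hox median ranged from -0.0574 to -0.0291, the genes below 0 numbered 17 to 21, and 0 Hox genes were called. Leaving out the first array of WT/null replicate 3 gave 1 Hox gene a difference between numbers (Hoxb6, adjusted p = 0.035, limma), where 6.74% of all tested probes passed, and the scanner ratios gave 8 a dye term, where 14.6% of all tested probes passed. The count of genes well above background in every channel, 15, was 23 without both arrays of WT/null replicate 3, an alternative chosen after seeing the data, as were those on the dye term and on genes below 0. Causes of other moves were not tested. Hoxa2, Hoxa6, Hoxd11 and Hoxd12 lay farthest from 0 with another background correction or source of ratios, at -0.26, -0.36, -0.24 and -0.42. So did Hoxc10 at -0.099 and Hoxd3 at 0.17. The part of low signal in these moves was not tested. Genes of group 13 did not reach the minimum for testing and stay unmeasured.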
